A study of Mus musculus with 7 samples.

Results

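Carbonic anhydrases are enzymes that interconvert CO2 and bicarbonate with a proton, and the family was examined here in sorted Pax7-GFP cells of mice kept in normal or raised CO2. The 10 genes (Car2, Car3, Car4, Car5b, Car6, Car8, Car9, Car12, Car13 and Car14) were taken by their symbols from a table of 23930 genes, and all 10 were found in it. Another 5 carbonic anhydrase genes in the table (Car1, Car5a, Car7, Car10 and Car11) are not among the 10 and are given only at the end.

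Family members differ mainly in where the enzyme sits. Car2, Car3 and Car13 are cytosolic, Car5b is mitochondrial, Car6 is secreted, Car4 is tethered to the outer face of the membrane by a lipid, and Car9, Car12 and Car14 span the membrane with the catalytic domain outside. Car8 is a related protein that has lost the catalytic activity. In skeletal muscle the family is known for carrying CO2 out of working fibers and for buffering protons at the surface and in the cytosol.

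GFP-positive cells sorted from the hind legs gave 7 RNA libraries, 3 from mice in normocapnia (NC1, NC2, NC3) and 4 from mice in hypercapnia (HC1, HC2, HC3, HC4), and values of a group are listed in the order of these numbers. All mice carried the tamoxifen-inducible Pax7-GFP reporter, in which Cre driven from the Pax7 gene switches on the label for good, so that descendants of Pax7 cells stay labeled. Tamoxifen and exposure began at 12 weeks of age and collection followed 4 weeks later, at 16 weeks. The hypercapnia chamber held 10% CO2 and controls breathed room air, and by the methods of the study the muscles of both groups were injured with cardiotoxin, a toxin that destroys fibers, 3 days before collection. The genotype labels read C57BL/6 for NC1 and count up by 1 in each sample to C57BL/12 for HC4, while the growth protocol names a single C57 background. The title of the deposited table carries a time that the study gives only for cultured cells, and this conflict was not resolved. The labels do not say that each library is a separate mouse, so p-values measure the spread between these samples.

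Libraries held 14527445 to 23388710 reads. Values are RPM, reads scaled to a common library total, from a panel that copies 1 short stretch of each transcript, so they compare a gene between libraries and not genes with each other. Which stretch of each transcript is copied is not given in the sources used here. Beside the satellite cell label, 12 markers of satellite cells and myoblasts were read. Their summed level ran from 604 to 4434 RPM in normocapnia and from 813 to 1708 RPM in hypercapnia. None was at 0 in all libraries, which does not decide what part of the cells were satellite cells. Myog ran from 0.138 RPM (2 reads) in NC3 to 871 RPM in NC1. Pax7 itself stood at 268, 8.25 and 4.34 RPM in normocapnia and at 21.5, 20.1, 79.5 and 59.7 RPM in hypercapnia. The 12 macrophage markers summed to between 12467 and 35196 RPM in normocapnia and between 20339 and 25242 RPM in hypercapnia. NC3 had the fewest reads and gave 16.6% of them to its 10 most abundant genes, against 8.36% to 12.1% in the other libraries. In these bulk samples fewer cells of a type and less RNA per cell cannot be told apart.

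Differences were taken as hypercapnia over normocapnia on log2(RPM + 1) with limma across all genes, and a gene was called at an unadjusted p under 0.05 with a fold change above 1.5. Of the 10 genes, 1 was called lower (Car6) and 0 higher, against 1.14% of all genes called lower, 1.43% called higher and 2.57% called in either direction. The groups did not overlap for Car6, lower in hypercapnia, and for Car9, higher, against 2.3% and 2.53% of all genes and 4.83% in either direction. A mean of 1 RPM was reached by 9 of the 10, and of all genes that reached it 4.75% were called and 7.72% had no overlap. Log2 fold changes were above 0 for 5 genes and below 0 for 5, with a median of 0.08, where the median of all genes at 1 RPM or more was 0.16. Median-of-ratios scaling took this general shift to 0.04. In edgeR with a filter it was -0.01, and 294 genes were called higher and 508 lower in place of 343 and 272 in limma. On whole reads Car5b and Car6 were called lower, as were 3.82% of genes in edgeR with a filter, which tested 9 of the 10, 2.99% in edgeR without it and 3.65% in DESeq2. With p-values adjusted over the table, limma passed 0 of the 10 (1 at an unadjusted p under 0.05, lowest adjusted p 0.827), edgeR without a filter 0 (2 unadjusted) and DESeq2 1 (2 unadjusted).

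**Figure D1:**
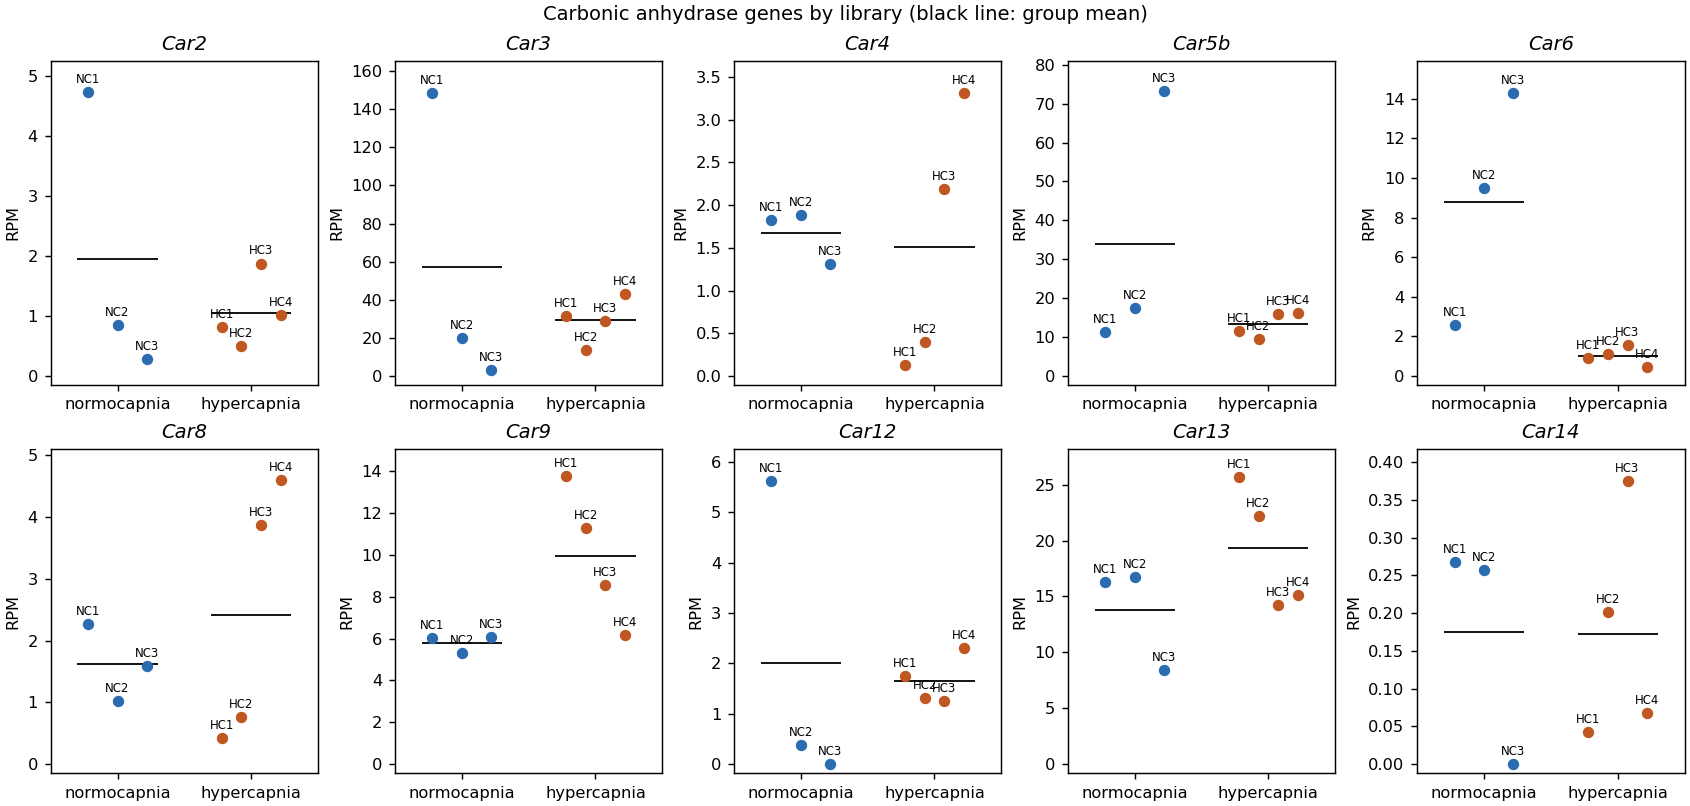
RPM (y axis, linear, a scale of its own in each panel) of the 10 carbonic anhydrase genes in 3 normocapnia (blue) and 4 hypercapnia (orange) libraries, each point a library and each black line a group mean. The groups are apart for Car6 and Car9, NC1 stands alone for Car2, Car3 and Car12, and NC3 for Car5b.

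Car6 and Car9 were the pair without overlap, and the stretch around a match to the core of the hypoxia response element near each gene start is shown because Car9 is a known hypoxia target. The core was searched as ACGTG and GCGTG on both strands in the 250 bases before the RefSeq gene start (GRCm38.p6). The promoter table matched 6 of the 10 genes. Of these 6 windows 4 hold a match (Car5b, Car6, Car9 and Car14), against 38.6% of all 32851 promoter windows of this length. Capitals mark the matches, both sequences are written 5′ to 3′ on the strand of the gene, and Car9 lies on the plus strand (chr4:43506996-43507024) and Car6 on the minus strand (chr4:150201267-150201296).
Car9: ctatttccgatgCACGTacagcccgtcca
Car6: gaggaggtgaggCACGTGcacaggcaccaa
The Car9 match begins 18 bases before the RefSeq gene start. In Car6 the pair of matches, 149 and 148 bases before the start, overlap, being the same letters read on either strand. Each stretch also lies inside 1 longer GENCODE transcript of its gene, of 7 for Car9 and 4 for Car6, so it is upstream of the start in the RefSeq annotation but transcribed in that model. A match of 5 letters is a description of the sequence and not a bound site, and its part in the differences between exposures was not tested.

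Car6, the secreted form found in saliva and milk, of which an intracellular form is also known from stressed cells, was lower in hypercapnia. It stood at 2.59, 9.49 and 14.3 RPM in normocapnia, and at 0.899, 1.10, 1.56 and 0.474 RPM in hypercapnia. Every hypercapnia library lay below every normocapnia library, the nearest pair being NC1 and HC3, 1.02 RPM apart. The values rest on 58, 222 and 208 reads in normocapnia and on 21, 22, 25 and 7 reads in hypercapnia, all above the floor of 3 reads. The group means were 8.80 ± 5.90 RPM (SD, n = 3) and 1.01 ± 0.452 RPM (SD, n = 4). The log2 fold change was -2.08 (SE 0.53, 95% interval -3.41 to -0.75, limma p = 0.00942, adjusted p 0.827), and an exact permutation test over the 35 divisions of the libraries gave p = 0.0286, two-sided, the smallest the design allows. Within normocapnia NC1 was much lower than NC2 and NC3. The summed macrophage markers were also lowest in NC1 and highest in NC3, at 12467, 23645 and 35196 RPM in normocapnia, and at 25242, 21835, 20339 and 20674 RPM in hypercapnia they lay inside that range. Lyz2 made up most of that sum in normocapnia, at 8354, 13313 and 29108 RPM. Single markers differed: Cd68 and Fcgr1 also rose from NC1 to NC3, whereas Adgre1 (109, 149 and 70.5 RPM) and C1qb (619, 947 and 158 RPM) were lowest in NC3. The part of macrophages in the Car6 values was not tested.

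The call of Car6 held in each of the 16 alternatives run. Its log2 fold change was -1.64 without NC3, where Car6 was highest, and -2.69 without NC1, with p under 0.05 in each. On whole reads edgeR gave -3.42 and DESeq2 -3.47, and DESeq2 alone passed adjustment (adjusted p 0.00612), where 0.135% of all genes did. Over the 16 alternatives the adjusted p ran from 0.00612 to 0.961. The pseudocount of 1 RPM compresses a gene at this level, and with 0.1 RPM the log2 fold change was -2.80 and with 5 RPM -1.10.

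**Figure D2:**
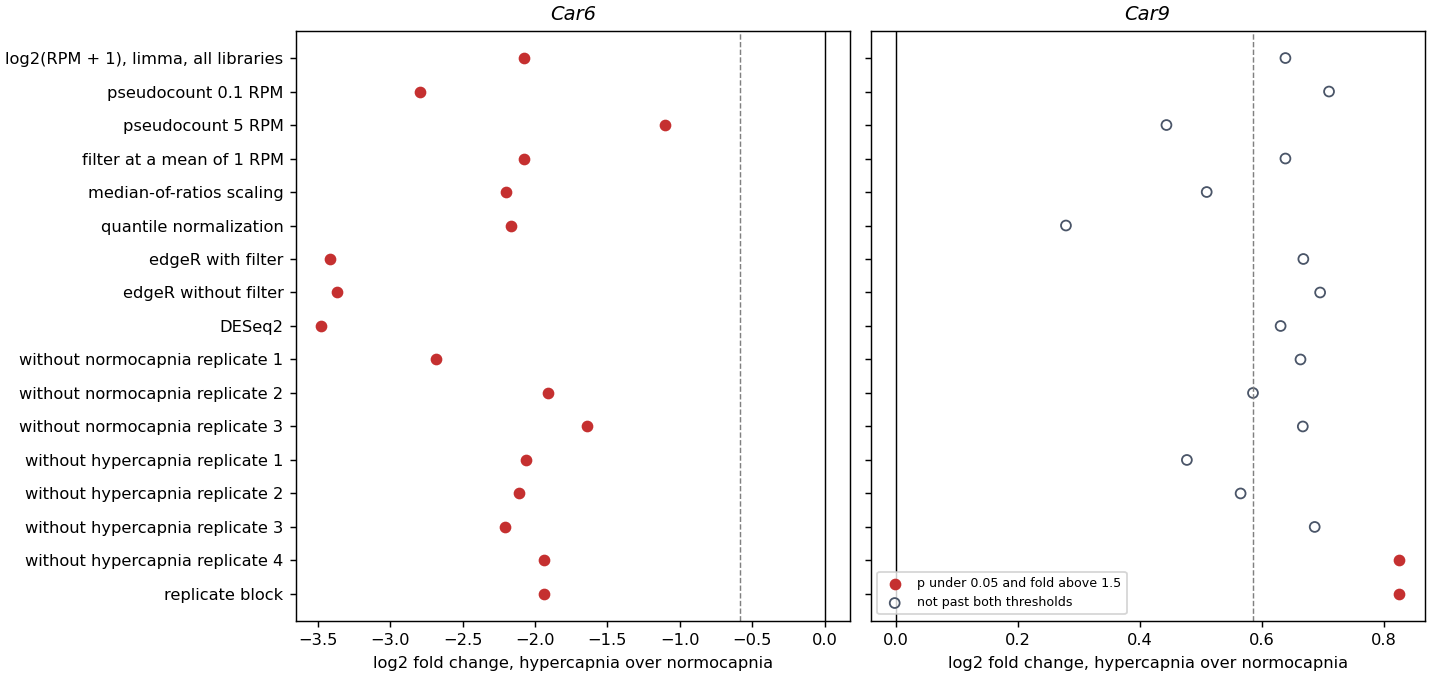
Log2 fold change (x axis, hypercapnia over normocapnia) of Car6 and Car9 under the analysis used here and 16 alternatives, filled where p was under 0.05 and the fold above 1.5, with a dashed line at that fold. Car6 stays filled throughout, between -3.47 and -1.10, and Car9 is filled without HC4 and with the replicate block, both at 0.83.

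Car9, the membrane enzyme with its active site outside the cell and a well-known target of the hypoxia-inducible factor, was not called. It stood at 6.02, 5.30 and 6.06 RPM in normocapnia, and at 13.8, 11.3, 8.56 and 6.16 RPM in hypercapnia. The normocapnia libraries lay close together, whereas the hypercapnia libraries spread widely above them, with HC4 only 0.103 RPM above NC3. Reads numbered 135, 124 and 88 in normocapnia and 322, 225, 137 and 91 in hypercapnia, so that NC3 and HC4 differ by 88 against 91 reads. The means were 5.79 ± 0.426 RPM (SD, n = 3) and 9.95 ± 3.31 RPM (SD, n = 4). The log2 fold change was 0.64 (SE 0.26, 95% interval -0.01 to 1.29, limma p = 0.0524, adjusted p 0.915), with an exact permutation p of 0.0571, two-sided. It passed the thresholds without HC4 (0.83, adjusted p 0.961), and was 0.48 without HC1, 0.28 after quantile normalization and 0.51 after median-of-ratios scaling. HC1 and HC2, where Car9 was highest, were also the highest of all libraries for 6 of the 12 macrophage markers (Adgre1, Cd68, C1qa, C1qb, Mrc1 and Fcgr1), C1qa on 0 to 10 reads. They were the highest for 1042 of the 12504 genes at 1 RPM or more. Of the other macrophage markers Csf1r, Cd14, Itgam and Mertk were highest in NC2, Ptprc in HC3 and Lyz2 in NC3. Of the list 1 gene was called higher, Adgre1 (F4/80), at 109, 149 and 70.5 RPM in normocapnia and 392, 429, 151 and 184 RPM in hypercapnia. The summed list was highest in NC3, at 35196 RPM, of which Lyz2 was 29108 RPM. The part of these cells in the Car9 values was not tested.

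Car12 and Car14, the other membrane-spanning forms, gave no call. Car12, which is expressed in many epithelia, stood at 5.62, 0.385 and 0 RPM in normocapnia, and at 1.75, 1.31, 1.25 and 2.30 RPM in hypercapnia. The hypercapnia libraries lay close together, and normocapnia ran from the highest of all libraries to 0 reads in NC3, where 3 reads would be 0.207 RPM. The log2 fold change was 0.32 (SE 0.69, 95% interval -1.39 to 2.04). Without NC1 it was 1.16 and past the thresholds (adjusted p 0.194), and without NC3 it was -0.21. Car14, known from liver, kidney and the muscle membrane, had 24 reads in all, with 0 to 6 in each library and at most 0.375 RPM, so a difference was not detectable at this depth.

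Car4, the lipid-anchored form of capillary endothelium and muscle membranes, split the hypercapnia libraries. It stood at 1.83, 1.88 and 1.31 RPM in normocapnia, and at 0.128, 0.402, 2.19 and 3.32 RPM in hypercapnia. HC1 and HC2 lay below all normocapnia libraries and HC3 and HC4 above them, HC1 resting on 3 reads and HC4 on 49. The difference between exposures was -0.30 on the log2 scale (SE 0.53, 95% interval -1.62 to 1.02). Within hypercapnia 9 of the 10 endothelial markers, all but Rgcc, were higher in HC3 and HC4 than in HC1 and HC2, and the list had sums of 216 and 178 RPM in HC1 and HC2, 782 and 611 RPM in HC3 and HC4, and 355 to 459 RPM in normocapnia. Rgcc, at 38.0, 233 and 334 RPM in normocapnia, made up most of the sum in NC2 and NC3. This division of the hypercapnia libraries was broad: 44.5% of all genes at 1 RPM or more were higher in both HC3 and HC4, and 23.6% lower. Higher in both were 12 of 12 satellite cell, 10 of 11 myofiber, 6 of 7 neutrophil and 6 of 6 Schwann cell and nerve markers. So were 2 of 6 red cell and 2 of 6 fat cell markers. Of the 12 macrophage markers 0 were higher in both and 8 were lower. Of the endothelial markers 0 were called by limma (0 at an unadjusted p under 0.05), and 1 was called lower by edgeR and by DESeq2 (Rgcc).

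Car8, the inactive relative, which binds the receptor for inositol trisphosphate and is best known from Purkinje neurons, followed the same division. It stood at 2.27, 1.03 and 1.58 RPM in normocapnia, and at 0.428, 0.754, 3.87 and 4.604 RPM in hypercapnia. HC1 and HC2 were again the lowest and HC3 and HC4 the highest of all 7 libraries. The difference was 0.16 on the log2 scale (SE 0.59, 95% interval -1.31 to 1.63). Of 7 fibro-adipogenic markers 4 were higher in HC3 and HC4 than in HC1 and HC2 and 1 lower, and the list summed to 1075 and 973 RPM in HC1 and HC2 and to 1942 and 2372 RPM in HC3 and HC4, and in normocapnia to 1897, 1347 and 1067 RPM, of which NC3 lay below HC1. The part of any of these cell types in the Car4 and Car8 values was not tested.

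Car5b, the mitochondrial form, which supplies bicarbonate to carboxylases in the matrix, was high in a single library. It stood at 11.2, 17.4 and 73.2 RPM in normocapnia, and at 11.5, 9.45, 15.9 and 16.2 RPM in hypercapnia. NC1 and NC2 lay within or just above the hypercapnia values, and NC3 lay far above every other library. On the log2 scale the difference was -0.87 (SE 0.66, 95% interval -2.51 to 0.77, adjusted p 0.915). On whole reads it was called lower, at -1.75 in edgeR with a filter (adjusted p 0.758) and -1.82 in DESeq2 (adjusted p 0.412). Without NC3 the limma value was -0.10.

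The cytosolic genes were not called either. Car3, the low-activity form that is abundant in slow muscle fibers and fat, stood at 149, 19.8 and 3.30 RPM in normocapnia, and at 31.2, 13.7, 29.0 and 43.1 RPM in hypercapnia. Normocapnia held both the highest and the lowest library, 45.0 times apart, and hypercapnia lay between them. The difference was 0.25 on the log2 scale (SE 1.24, 95% interval -2.85 to 3.34), an interval that leaves room for large changes in either direction. It was 1.57 without NC1 and -0.99 without NC3, and below 0 in edgeR (-0.76 with a filter) and DESeq2 (-0.80).

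The sum of the myofiber markers shared its highest and its lowest library with Car3. The 11 myofiber markers in the table summed to 5929, 1596 and 328 RPM in normocapnia, and to 850, 473, 1725 and 3179 RPM in hypercapnia, so that NC1 was highest and NC3 lowest for the sum as for Car3. In between the orders differed, HC1 holding more Car3 than HC3 or NC2 and a lower myofiber sum than either. Muscle creatine kinase (Ckm) stood at 320 RPM in NC1 and 34.4 RPM in NC3 and was lowest in HC2, at 23.7 RPM. Myh2, Myh4, Tnni2 and Mylpf were also lowest in HC2, and Mb was highest in HC4 and Myh2 in HC3. Myh7, the slow myosin gene of the list, was not used here, so slow fibers had no myosin marker of their own. The satellite cell sum had the same extremes as Car3, at 4434 RPM in NC1 and 604 RPM in NC3. The 6 fat cell markers summed to 1.25 to 12.3 RPM over all libraries, and Adipoq, which defines fat cells, was at most at 0.135 RPM. Of the myofiber markers limma, edgeR and DESeq2 called 0 between exposures, and 0 had an unadjusted p under 0.05. The part of fibers or satellite cells in the Car3 values was not tested.

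Car2, the high-activity form of red cells and osteoclasts, stood at 4.73, 0.855 and 0.275 RPM in normocapnia, and at 0.813, 0.502, 1.87 and 1.02 RPM in hypercapnia. NC1 was again highest and NC3, with 4 reads, lowest. The difference was -0.26 on the log2 scale (SE 0.56, 95% interval -1.67 to 1.15), and it was 0.37 without NC1. Globin genes were not used here, and among the 6 red cell markers measured Alas2, an enzyme of heme synthesis in red cell precursors, was 15.4 RPM in NC1 and 0.201 to 5.12 RPM in the other libraries.

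Car13, a widely expressed cytosolic form, stood at 16.3, 16.8 and 8.40 RPM in normocapnia, and at 25.7, 22.2, 14.2 and 15.1 RPM in hypercapnia. HC1 and HC2 were the highest, and HC3 and HC4 lay below NC1 and NC2. The difference was 0.47 on the log2 scale (SE 0.33, 95% interval -0.34 to 1.29), and 0.17 without NC3. Its direction was the same under all 16 alternatives, as was that of Car5b, Car6 and Car9.

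**Figure D3:**
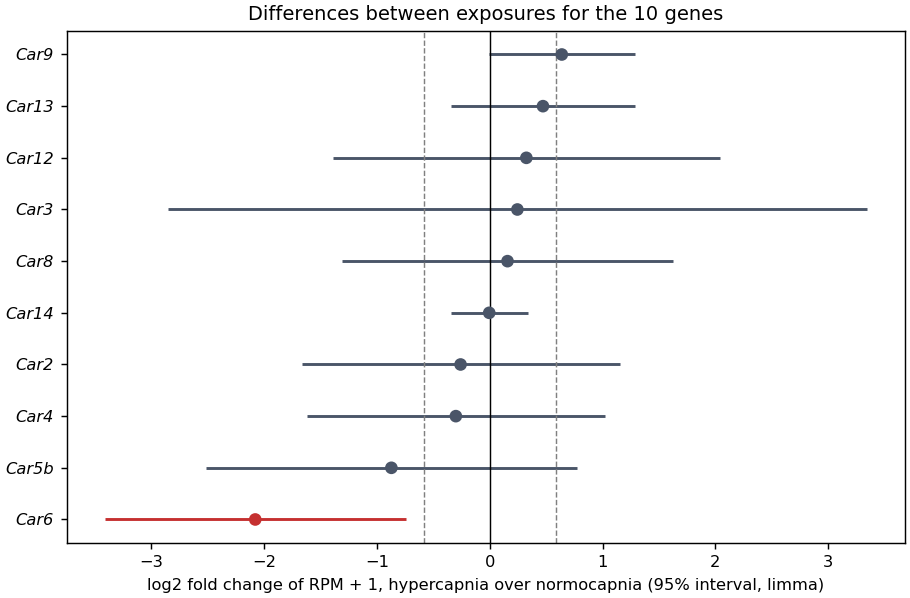
Log2 fold change of RPM + 1 (x axis, hypercapnia over normocapnia) of the 10 genes with 95% intervals from limma, with dashed lines at a 1.5-fold change and the called gene in red. The interval of Car6 lies below 0 (-3.41 to -0.75), that of Car9 touches 0 (-0.01 to 1.29), and that of Car3 is the widest (-2.85 to 3.34).

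Across the 7 libraries some of the genes varied together. Of the 36 pairs among the 9 genes at 1 RPM or more, 4 had a Pearson correlation of log2(RPM + 1) of 0.8 or more: Car3 with Car12 (0.93), Car4 with Car8 (0.88), Car2 with Car3 (0.88) and Car2 with Car12 (0.81). Car5b, Car6, Car9 and Car13 had no partner at that level. A further 2 were at -0.8 or less, Car5b with Car13 (-0.89) and Car4 with Car9 (-0.82). These correlations describe 7 libraries that share depth and cell makeup, and Car2, Car3 and Car12 were each highest in NC1 and lowest in NC3. Car13, Car3 and Car2 lie in 1 row with Car1 on chromosome 3, with 0 other protein-coding genes between neighbours in the RefSeq annotation (GRCm38.p6), yet the correlation of Car13 was 0.44 with Car3 and 0.10 with Car2. Of the 10 genes, NC3 was the lowest library for 5 and the highest for 2.

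**Figure D4:**
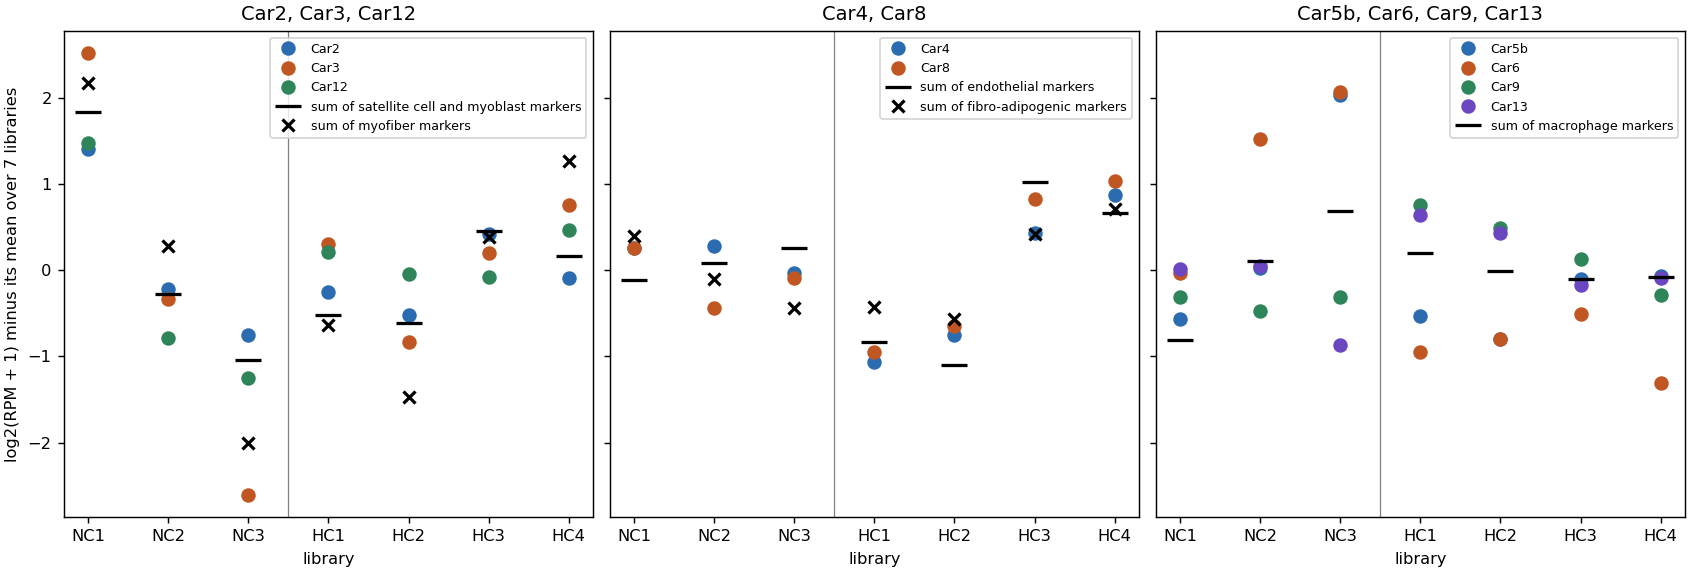
Log2(RPM + 1) minus its mean over the 7 libraries (y axis) for 9 carbonic anhydrase genes (colored points) and for sums of cell type markers (black bars and crosses) in each library (x axis), with a grey line between normocapnia and hypercapnia. Car2, Car3 and Car12 are highest in NC1 and lowest in NC3 with the satellite cell and myofiber sums, Car4 and Car8 are lowest in HC1 and HC2 with the endothelial sum, and Car6 alone of those drawn is below every normocapnia value in all hypercapnia libraries.

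The genes most like each member were sought among 8226 genes averaging 10 RPM or more, by the Pearson correlation of log2(RPM + 1) over the 7 libraries, with 3 taken for each member. With so many genes and 7 libraries high values arise readily, so they are a description. Car6 was most like Rbbp6 (0.996), Bptf (0.993), a subunit of a chromatin remodeler, and Sik2 (0.990), and Rbbp6 stood at 46.4, 63.1 and 74.4 RPM in normocapnia and at 37.8, 39.1, 40.1 and 32.6 RPM in hypercapnia. Car9 was most like Ddx60 (0.973), an interferon-stimulated helicase, Ubap2l (0.963) and the heparan sulfate degrading enzyme Hpse (0.959). Ddx60 stood at 11.6, 9.45 and 11.2 RPM in normocapnia and at 54.1, 58.0, 22.7 and 15.5 RPM in hypercapnia, with the same order of the hypercapnia libraries apart from HC1 and HC2. Car5b was most like Ddit3 (0.994), which encodes the stress factor CHOP, the chaperone partner Dnajb9 (0.990) and C1galt1 (0.988), all highest in NC3, where Ddit3 reached 63.3 RPM against 15.2 to 22.2 RPM elsewhere. Car3 was most like Asf1a (0.9996), Cfl2 (0.992), the muscle cofilin, and AU022252 (0.986), and Cfl2 ran from 1.65 RPM in NC3 to 91.0 RPM in NC1. Car13 was most like Apmap (0.991), Eif2ak2 (0.990), the RNA-sensing kinase PKR, and A230046K03Rik (0.985). The genes most like Car4 were Ankrd2 (0.972), Dpep1 (0.954) and Abi3bp (0.950), those most like Car8 were Prex2 (0.988), 1810011O10Rik (0.980) and Slco2a1 (0.972), a prostaglandin transporter, and for Car2 and Car12 they were Ddx52 (0.990), Eif4ebp1 (0.989) and Mier3 (0.988), and Chn2 (0.993), Rpap3 (0.980) and Agbl5 (0.980).

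Carbonic anhydrases work with carriers that move bicarbonate, protons and lactate across the membrane, and lists of these were examined in the same fit. Of 15 bicarbonate transporters 0 were called by limma, edgeR or DESeq2 (0 at an unadjusted p under 0.05 in each), with a median log2 fold change of 0.06 and a range of -0.23 to 0.53. Those with the highest RPM on this panel were the anion exchanger Slc4a2 (42.9, 71.6 and 22.2 RPM against 56.3, 63.2, 58.9 and 60.1 RPM), the sodium bicarbonate cotransporter Slc4a7 and Slc26a6. Of 10 proton and lactate transporters 0 were called by any of the 3 tools (0 at an unadjusted p under 0.05), with a median of 0.21 and a range of -0.47 to 1.21. Among those with the highest RPM on this panel were Bsg, the chaperone of the lactate carriers (log2 fold change -0.38), and its relative Emb (-0.47). Of the 4 CO2 channel proteins measured limma and DESeq2 called 0 (0 at an unadjusted p under 0.05), and edgeR without a filter called Rhcg lower, a gene with at most 0.482 RPM. Aqp1, the water channel that also passes CO2, was lower in HC1 and HC2 (10.5 and 15.3 RPM) than in HC3 and HC4 (60.2 and 43.0 RPM), the division of hypercapnia libraries seen for Car4 and Car8, with normocapnia at 11.5 to 32.8 RPM.

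Because Car9 is a hypoxia-inducible gene, 14 hypoxia-responsive genes were examined beside it. Of these limma called 2 higher and 0 lower, with a median log2 fold change of 0.13. Over all genes limma called 1.43% higher and 1.14% lower, and 4.75% of those at 1 RPM or more in either direction. Unfiltered edgeR called 1 higher (Hif1a) and 0 lower, against 407 and 642 of all 21487 genes it tested. DESeq2 called 1 higher (Hif1a) and 1 lower (Kdm3a, a histone demethylase, at -0.55 in limma), against 519 and 785 of 21487. Hif1a, the oxygen-regulated subunit of the factor itself, stood at 248, 130 and 128 RPM in normocapnia and at 269, 213, 381 and 499 RPM in hypercapnia, with HC2 below NC1 and the groups overlapping (log2 fold change 1.01, SE 0.39, adjusted p 0.915). Hk2, hexokinase, was the other (0.68, SE 0.09, adjusted p 0.492), with no overlap between the groups. It was not called in edgeR without a filter or in DESeq2. Of those limma did not call, Egln3 (1.04, SE 0.92) and Ldha (0.98, SE 0.63) had the highest log2 fold changes, and Vegfa (0.01, SE 0.51) and Ndrg1 (-0.05, SE 0.37) lay near 0. Ldha overlapped between the groups, at 1583, 548 and 271 RPM in normocapnia against 1116, 883, 1308 and 1722 RPM in hypercapnia.

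**Figure D5:**
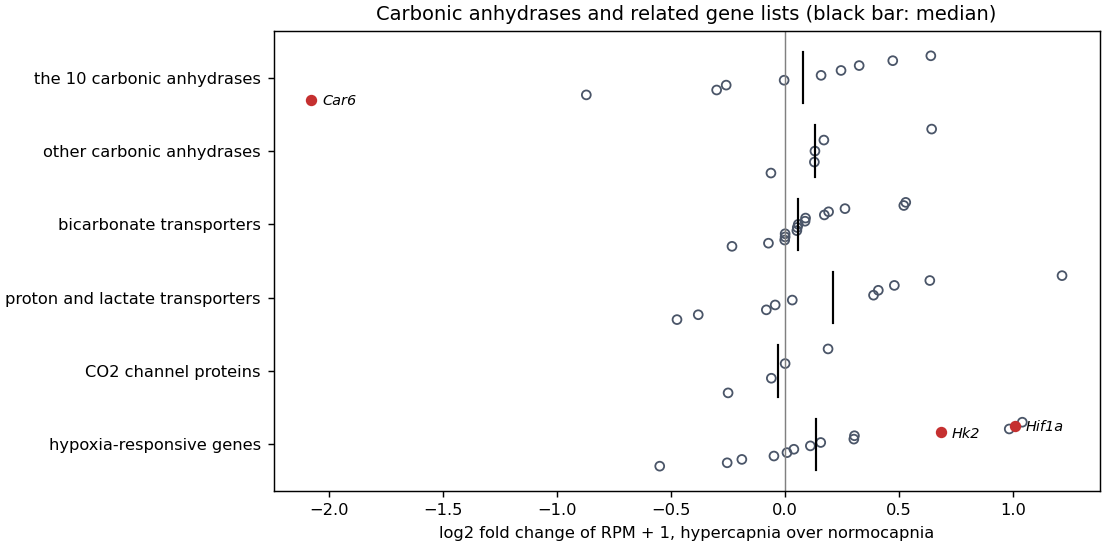
Log2 fold change of RPM + 1 (x axis, hypercapnia over normocapnia) of each gene in the 10 carbonic anhydrases and in 5 related lists (rows), with called genes in red and the median of each list as a black bar. The medians lie between -0.03 and 0.21, and the called genes are Car6, Hif1a and Hk2.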

How the data were processed

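RNA of sorted Pax7-GFP cells was copied by the authors with the Ion AmpliSeq Transcriptome Mouse kit and read on an Ion S5 instrument, and the deposited table holds RPM, reads scaled by the authors to a common total per library. Per the labels the Transcriptome Analysis Console was used. Aligner: not given in the sources used here, as is the genome build. Whole reads were recovered from the steps of the RPM values (100% of values within 0.05 of a whole read). Reads differed beyond sampling noise in all 21 library pairs.
limma 3.58.1 (R 4.3.3) was fitted to log2(RPM + 1) over all 23930 genes, of which 2443 were at 0 in all libraries, without a filter. A gene was called at the thresholds of the study, and p-values were adjusted over all genes by the method of Benjamini and Hochberg. Alternatives were pseudocounts of 0.1 and 5 RPM, a minimum mean of 1 RPM, scaling by median of ratios or quantiles, DESeq2 1.42.0 and edgeR 4.0.16 (filtered and unfiltered) on the whole reads, omission of each library in turn, and the replicate number as a block. The fits were tested on simulated data. All 10 members are named, and of other lists the 3 of highest RPM and the called genes, of which 1 is not reported here. Others (Aqp1, Ldha, Egln3, Vegfa, Ndrg1, Ckm, Mb, Myh2, Myh4, Adipoq, Alas2, Pax7, Rhcg, Kdm3a, Rgcc, Lyz2, Cd68, C1qa, C1qb, Mrc1, Fcgr1, Csf1r, Cd14, Mertk and Ptprc) were singled out with their values seen. The members and lists were chosen with earlier results of these data known. Intervals on reads cover counting error only. The panel gives 1 value per gene, so isoforms were not told apart.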

Additional observations from a re-analysis of the deposited data

How the results depend on the processing

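Car6 kept its direction and its call under all 16 alternatives, with log2 fold changes of -3.47 to -1.10 (-2.69 to -1.64 when a library was left out). Car9 and Car12 were called in some. The count called higher, 0, was 1 with the replicate block (Car9), and 0 to 1 with a library left out (Car12 without NC1, Car9 without HC4). The count called lower, 1, was 2 in edgeR with a filter, in edgeR without it and in DESeq2, by the addition of Car5b, and 1 whichever library was left out. Leaving out NC3, the library where Car5b is highest, took its value to -0.10. For the related lists the count called higher, 2, was 1 with median-of-ratios scaling, with the replicate block, in DESeq2 and in both edgeR fits, and 1 to 5 with a library left out, 5 being without NC1. Their count called lower, 0, was 1 with a pseudocount of 0.1 RPM, after median-of-ratios scaling or quantile normalization, in DESeq2 and in both edgeR fits, and 0 to 1 with a library left out.
Signs turned for 6 of the 9 genes that limma did not call with all libraries. Car3 was -0.10 with quantile normalization, -0.76 and -0.80 in edgeR (filtered, unfiltered) and -0.80 in DESeq2, and ran from -0.99 to 1.57 with a library left out. Car8 was -0.25 with quantile normalization and -0.16 with the replicate block, and -0.16 to 0.49 with a library left out. Car12 was -0.035 and -0.066 in edgeR (filtered, unfiltered) and -0.065 in DESeq2, and -0.21 to 1.16 with a library left out. Car14 was 0.037 with a pseudocount of 0.1 RPM, 0.037 with the replicate block and 0.0039 after median-of-ratios scaling, and ran from -0.12 to 0.055 with a library left out. With a library left out, Car2 ran from -0.71 to 0.37 and Car4 from -0.63 to 0.012. The cause of these changes was not tested. In the fit with the replicate block Car6 was -1.94 and Car9 0.83. Libraries with the same number share only that number: their deviations from the group means correlated at -0.35, 0.50 and -0.04, and HC4 has no partner, so the fit with the block drops it and not every library correlated best with its own number. Across all genes the limma count of 615 was 1990 without NC1, 1205 without NC2, 376 without HC2, 385 without HC1, 802 in edgeR with a filter, 1049 without one and 1304 in DESeq2. Depth limits Car14 and the lowest values of Car2, Car4 and Car12, which rest on 0 to 4 reads.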

Other observations

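The other 5 carbonic anhydrase genes of the table were low in all libraries. Car7, a cytosolic form of neurons and muscle, stood at 0.669, 0.641 and 0.413 RPM in normocapnia, and at 0.984, 0.352, 3.44 and 2.03 RPM in hypercapnia, with HC3 and HC4 above the rest (log2 fold change 0.64, SE 0.42, adjusted p 0.915). Car11, another relative without activity, ran from 0 to 1.62 RPM, Car1 from 0.134 to 0.745 RPM, Car5a up to 0.474 RPM and Car10 up to 0.138 RPM. By limma, edgeR and DESeq2, 0 of the 5 were called and 0 had an unadjusted p under 0.05.

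HC3 and HC4 stood above HC1 and HC2 for 4 of the 10 genes (Car2, Car4, Car5b and Car8) and for Car7 and Aqp1, and below them for 2 (Car9 and Car13). Of all genes at 1 RPM or more 44.5% stood above and 23.6% below, so the share of the 10 is near that of the table. These libraries belong to 1 exposure and the labels name no batch. Nerve and Schwann cell markers summed to 32.3 and 33.2 RPM in HC1 and HC2 and to 168 and 83.1 RPM in HC3 and HC4.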
